A study of Mus musculus with 4 samples.

Results

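10 genes of Notch signalling were examined in melanocytes, which make the pigment of skin and hair, after culture from AhR knockout and wild-type mice. AhR, the aryl hydrocarbon receptor, is a transcription factor that binds dioxins and related ligands. The 10 genes are the receptors Notch1, Notch2, Notch3 and Notch4, the ligands Jag1, Jag2 and Dll4, the DNA-binding factor Rbpj, and the target genes Hes1 and Hey1. They were taken by symbol from the array's annotation, stand among 12393 genes measured, and each was read from its brightest probe set. The AhR knockout group held 2 female mice of the AhRtm1Bra strain, which carry a germline deletion of exon 2 of Ahr. The wild-type group held 2 female C57Bl/6 mice. The labels used here give no ages. Both groups shared the source, epidermal cells of the tail, the serum-free melanocyte medium that selected among them, and a culture time of 6 to 8 weeks, and each array held the RNA of a single mouse (n = 2 in both groups).

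Notch receptors sit in the plasma membrane and are activated by Jagged or Delta-like ligands on a neighbouring cell. An ADAM protease and then the gamma-secretase complex cut the bound receptor, and the freed intracellular domain enters the nucleus, joins Rbpj and turns on Hes and Hey genes, which encode transcriptional repressors. In mouse skin this pathway maintains melanocyte stem cells and melanoblasts, and mice that lose it in the melanocyte lineage turn grey. Notch4 and Dll4 are known mainly from the endothelium of blood vessels.

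The median signal was 89.5 and 94.0 in AhR knockout 1 and 2, against 96.8 and 98.4 in wild type 1 and 2. AhR knockout 2 stood apart in its controls. The 3' to 5' ratio of the Gapdh control probe sets, which grows with RNA breakage or 3'-biased amplification, was 1.98 and 11.9 in AhR knockout 1 and 2, against 2.13 and 2.85 in wild type 1 and 2. The brighter Ahr probe set read 241 and 843 in AhR knockout 1 and 2, against 825 and 874 in wild type, a log2 difference of -0.88 ± 0.53 (SE) with a limma adjusted p of 0.37. AhR knockout 2 thus read within the wild-type range, and without AhR knockout 1 the difference was -0.01. The dimmer Ahr probe set went the other way, at 41.3 and 49.9 in knockout and 28.4 and 19.9 in wild type, and the mean of the probe sets gave -0.13. The place of either probe set relative to exon 2 was not analysed here, so neither checks a label. Of 12 melanocyte markers, 10 were measured, and they ranged upward from a signal of 926 on all 4 arrays. In knockout 9 of the 10 were higher (median log2 difference 0.64), where 50.4% of all tested genes were. In limma 0 of the 10 were past the threshold, where 0.82% of all tested genes were. Endothelial markers were also present. Emcn, endomucin of the vessel lining, read 3321 and 1041 in knockout cultures and 7391 and 10176 in wild-type cultures.

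None of the Notch genes passed the test, and the largest differences lay in Jag1 and Notch4, both lower in knockout cultures. Of the 10 genes, 6 were bright enough to test, namely Notch1, Notch2, Notch4, Jag1, Rbpj and Hes1. The lowest mean signal tested was 76.1, and differences were taken on the scale of log2(signal + 16), which understates those of dim genes. All 6 had a negative difference, as did 49.6% of tested genes (50.4% were higher), and their median was -0.67, while that of all 7436 tested genes was 0.01. In limma, 0 of the 6 had an adjusted p under 0.05, where 0.82% of all tested genes did. Of those, 12 were higher (0.161% of tested genes) and 49 lower (0.659%), or 20 and 41 with array medians set equal. At an unadjusted p under 0.05, 3 of the 6 were lower, where 12.8% of all tested genes were lower by that rule and 20.4% passed it in either direction. Both knockout arrays lay below both wild-type arrays for 4 of the 6, where 26.5% of tested genes did so. In RNA from whole cultures, fewer cells of a type and less RNA per cell cannot be told apart.

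**Figure D1:**
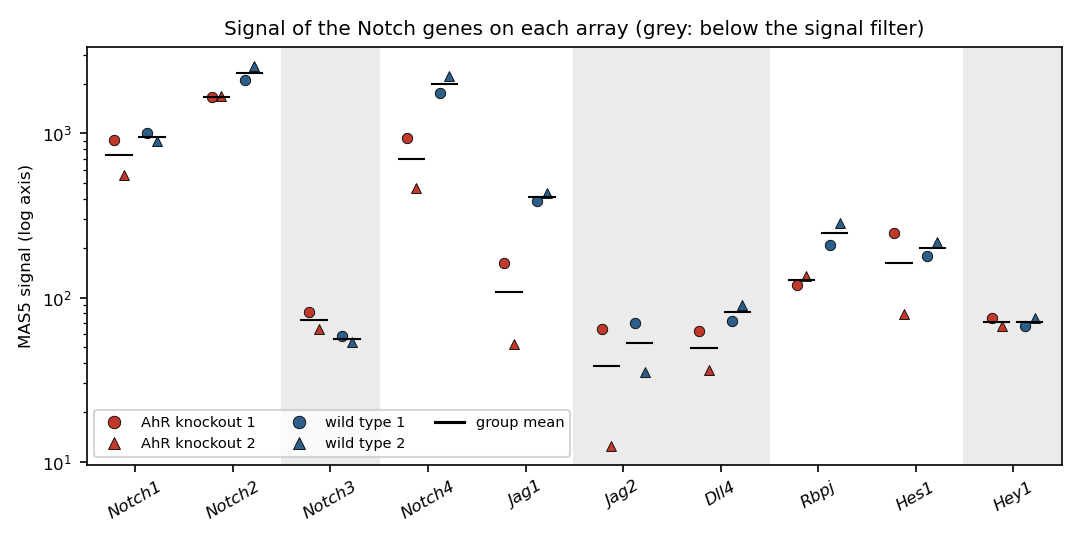
Signal of the 10 Notch genes (y axis, MAS5 signal, log scale) on each array, with AhR knockout in red to the left of wild type in blue. Circles and triangles mark animals 1 and 2, black bars mark group means of 2 arrays, and grey shading marks genes under the signal filter. The knockout points of Jag1, at 163 and 51.9, lie below the wild-type points at 386 and 436.

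Jag1 encodes Jagged1, a ligand that activates Notch receptors on adjacent cells. It read 163 and 51.9 in AhR knockout 1 and 2, against 386 and 436 in wild type 1 and 2. The groups did not overlap, and the knockout arrays differed more from each other than the wild-type arrays did. The mean was 107 ± 78.5 in knockout and 411 ± 35.0 in wild type (SD, n = 2 each). The log2 difference was -1.95 ± 0.47 (SE), with a 95% interval from -2.99 to -0.91, which is 3.87-fold lower on the scale of signal + 16. The adjusted p by limma was 0.074, so Jag1 did not pass. Its difference ranked 76 from the lowest among 7436 tested genes. Leaving out single arrays moved the call. Without AhR knockout 1 the difference was -2.65 (limma adjusted p = 6.905e-08) and without AhR knockout 2 it was -1.25 (limma adjusted p = 0.032), each resting on a lone knockout array assumed to vary like the others. Over all tested genes, 17.9% passed without AhR knockout 1 and 13.5% without AhR knockout 2. Without wild type 2 the limma adjusted p of Jag1 was 0.43. A second, dimmer Jag1 probe set read 39.2 and 5.39 in knockout and 34.0 and 54.9 in wild type, so there the groups overlapped.

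Notch4 encodes a receptor expressed mainly in endothelium. Its signal was 936 and 463 in AhR knockout 1 and 2, against 1761 and 2237 in wild type 1 and 2. Every knockout value was below every wild-type value. The mean was 699 ± 335 in knockout and 1999 ± 336 in wild type (SD, n = 2 each), a log2 difference of -1.57 ± 0.42 (SE) with a 95% interval from -2.51 to -0.63. The adjusted p by limma was 0.097, short of the threshold. Leaving out AhR knockout 1 gave a Notch4 difference of -2.06, and leaving out AhR knockout 2 gave -1.07. It was -1.74 without wild type 1 and -1.40 without wild type 2. Each of these fits rests on a lone array in a group, so none decides the call. The dimmer Notch4 probe set went the same way, with 120 and 149 in knockout and 205 and 282 in wild type.

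Endothelial markers were lower in the same arrays. All 13 tested of 15 listed endothelial markers had a negative difference, where 49.6% of all tested genes did, and their median was -1.57. Both knockout arrays lay below both wild-type arrays for 10 of the 13, where 26.5% of all tested genes did so. Sox17, an endothelial transcription factor, was the single marker of that list past the threshold. The summed signal of the 15 markers was 15779 and 5582 in AhR knockout 1 and 2, against 25023 and 26844 in wild type. None was at 0, and Vwf and Erg were below the signal filter. Set against the wild-type mean, knockout arrays 1 and 2 gave endothelial medians of -0.89 and -2.00, Jag1 differences of -1.25 and -2.65, and Notch4 differences of -1.07 and -2.06. The part of endothelial cells in the Jag1 and Notch4 differences was not tested, nor was that of the control ratio of AhR knockout 2.

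**Figure D2:**
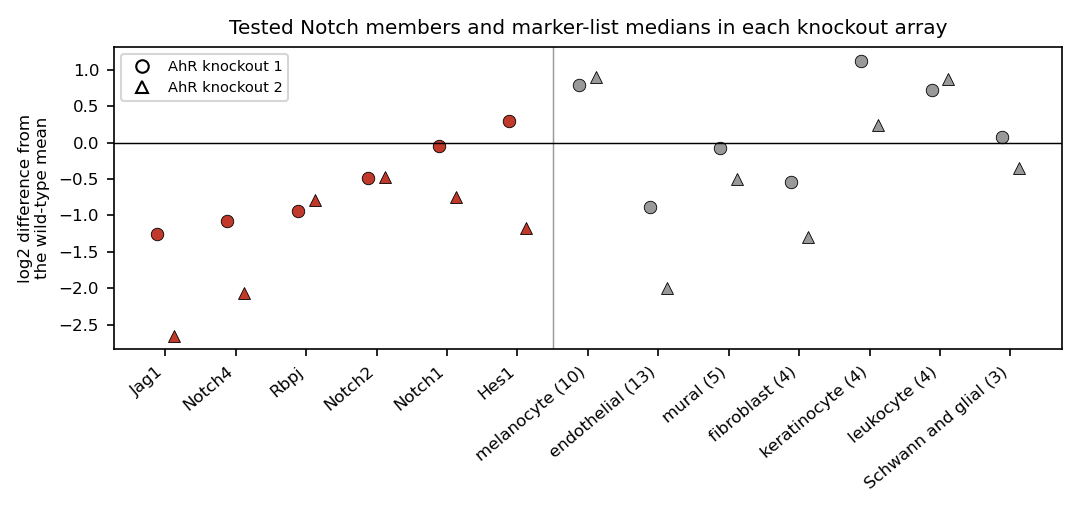
Log2 difference of each knockout array from the wild-type mean (y axis) for the 6 tested Notch genes in red and for the medians of 7 marker lists in grey, with the number of tested markers in brackets. Circles stand for AhR knockout 1 and triangles for AhR knockout 2. Jag1, Notch4 and the endothelial, fibroblast and mural medians are below 0 in both arrays and lower in AhR knockout 2.

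Markers of other cell types the cultures could hold did not share one direction. The medians over tested markers were -0.28 for 5 mural, -0.92 for 4 fibroblast, 0.74 for 4 keratinocyte, 0.80 for 4 leukocyte and -0.14 for 3 Schwann and glial markers. Set against the wild-type mean, knockout arrays 1 and 2 gave fibroblast medians of -0.54 and -1.30 and mural medians of -0.07 and -0.50. Both lists had negative medians that were lower in AhR knockout 2. The 5 tested mural markers went both ways, with 2 higher and 3 lower, where 50.4% and 49.6% of all tested genes were. The keratinocyte medians were 1.12 and 0.23, and the summed signal of that list was 1996 and 479 in AhR knockout 1 and 2, against 571 and 488 in wild type, so AhR knockout 1 carried that difference. Leukocyte medians were 0.72 and 0.88, and the Schwann and glial medians, 0.07 and -0.35, had opposite signs. The part of these cell types in the Notch gene differences was not tested. Of these, Col3a1, a fibroblast collagen, was the only marker past the threshold in limma, where 0.82% of all tested genes were. It read 95.1 and 50.5 in AhR knockout 1 and 2, against 372 and 439 in wild type. Averaged on the scale of the signal filter, its knockout arrays lie under the lowest mean tested. Col3a1 passed the filter only through the wild-type arrays, so its pass is not read as support.

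The promoters of Jag1 and Notch4, the genes with the largest differences, are shown with the core letters of the element that AhR binds, together with that of Notch2, a gene with a smaller difference. They run from 250 bases before to 50 bases after the gene start, on the gene's strand from 5' to 3', taken from RefSeq, build GRCm38.p6. Jag1 lies at chr2:137116471-137116770 (minus strand), Notch4 at chr17:34564045-34564344 (plus strand) and Notch2 at chr3:98013288-98013587 (plus strand). Capitals mark GCGTG, or CACGC where the motif is on the opposite strand.
Jag1: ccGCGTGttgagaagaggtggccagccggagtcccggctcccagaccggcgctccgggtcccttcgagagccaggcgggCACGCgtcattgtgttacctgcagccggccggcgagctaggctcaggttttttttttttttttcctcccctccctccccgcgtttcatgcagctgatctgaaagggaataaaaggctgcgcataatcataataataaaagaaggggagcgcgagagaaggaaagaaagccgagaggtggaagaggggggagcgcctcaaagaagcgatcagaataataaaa
Notch4: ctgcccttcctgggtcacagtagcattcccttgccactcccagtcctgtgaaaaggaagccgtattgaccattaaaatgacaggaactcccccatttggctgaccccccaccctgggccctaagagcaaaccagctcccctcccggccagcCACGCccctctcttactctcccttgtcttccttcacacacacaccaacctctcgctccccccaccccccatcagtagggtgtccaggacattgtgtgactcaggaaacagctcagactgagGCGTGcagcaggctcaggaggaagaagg
Notch2: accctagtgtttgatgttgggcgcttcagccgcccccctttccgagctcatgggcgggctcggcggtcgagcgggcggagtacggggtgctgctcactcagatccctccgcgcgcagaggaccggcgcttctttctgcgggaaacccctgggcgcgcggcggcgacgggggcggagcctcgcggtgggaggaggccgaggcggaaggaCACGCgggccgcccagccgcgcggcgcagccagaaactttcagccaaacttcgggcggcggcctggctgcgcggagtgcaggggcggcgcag
The motif was searched on both strands in the promoters of the 8 Notch genes that the RefSeq table held. It occurred in 7 of the 8, in every one but Rbpj, where 32.4% of 32851 promoters of the same length held it. Jag1 had it at -248 and -171, Notch4 at -99 and 23, and Notch2 at -42 from the gene start. No 2 copies overlapped. It was present in Jag1 and Notch4, and also in Notch1 and Notch2, whose intervals included 0. Whether the motif bears on any of these differences was not tested. The letters contain a CG pair, and promoters of these genes held between 5 and 63 such pairs, against a median of 7 over all promoters. A match of 5 letters is a description of the sequence and not a binding site.

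Notch2 and Notch1 are receptors with known roles in the melanocyte lineage. Notch2 read 1650 and 1675 in AhR knockout 1 and 2, against 2110 and 2566 in wild type 1 and 2. The groups did not overlap. The log2 difference was -0.48 ± 0.34 (SE), with a 95% interval from -1.24 to 0.28 and a limma adjusted p of 0.44. Notch1 read 915 and 559 in knockout and 1003 and 892 in wild type, so AhR knockout 1 fell between the wild-type arrays. Its difference was -0.39 ± 0.39 (SE), with a 95% interval from -1.26 to 0.47 and a limma adjusted p of 0.58.

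For both of these receptors the dimmer probe set went the other way. The second Notch1 probe set read 202 and 169 in knockout, above 112 and 84.0 in wild type, a log2 difference of 0.83. The second Notch2 probe set read 56.6 and 49.1 in knockout and 43.4 and 36.4 in wild type, a difference of 0.30. The direction of Notch1 thus depended on the probe set, and it was 0.22 with the mean of its probe sets. Where the probe sets lie in the transcripts was not analysed here. Notch3, a receptor best known from mural cells of vessels, was under the signal filter. It read 82.0 and 63.9 in knockout and 58.5 and 53.5 in wild type, a log2 difference of 0.30 without a test.

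**Figure D3:**
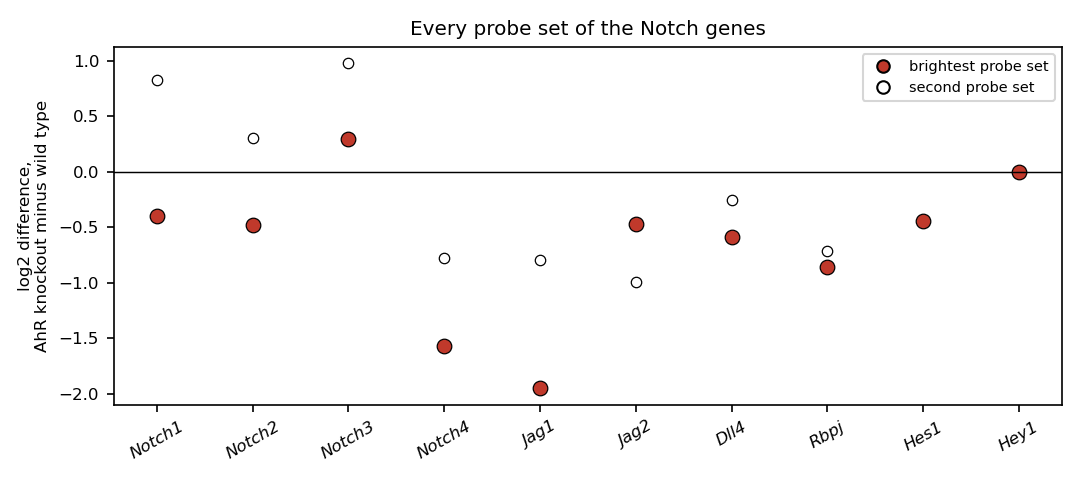
Log2 difference, AhR knockout minus wild type (y axis), of every probe set of the 10 Notch genes. Filled red points are the brightest probe set of a gene and open points the second. Of the genes with a pair of probe sets, Notch1 and Notch2 have points on both sides of 0.

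The remaining ligands were dim. Dll4, the Delta-like ligand of sprouting vessels, read 62.5 and 36.4 in AhR knockout 1 and 2 and 71.7 and 90.5 in wild type, a log2 difference of -0.59 without a test. The groups did not overlap on this probe set and did overlap on the dimmer one. Jag2, a Jagged ligand, read 64.6 and 12.6 in knockout and 70.0 and 35.4 in wild type. The groups overlapped on this probe set, and no test was made. The dimmer Jag2 probe set read 19.5 and 9.51 in knockout and 38.8 and 49.7 in wild type, without overlap. Detection calls were not used here, so whether these dim signals stand above background was not established.

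Rbpj encodes the DNA-binding protein through which all Notch receptors act on their targets. Its signal was 120 and 135 in AhR knockout 1 and 2, against 209 and 284 in wild type 1 and 2. The groups did not overlap, and the knockout arrays were close to each other. The log2 difference was -0.86 ± 0.36 (SE), with a 95% interval from -1.66 to -0.06. Rbpj had an unadjusted p of 0.038 and a limma adjusted p of 0.22, so it did not pass. Set against the wild-type mean, knockout arrays 1 and 2 gave differences of -0.93 and -0.79. The dimmer Rbpj probe set was lower in both knockout arrays as well, at 45.5 and 26.7 against 69.8 and 66.6 in wild type.

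The first of the pair of Rbpj promoters in the RefSeq table is shown because it held the core letters that Rbpj protein itself binds, TGGGAA, or TTCCCA where on the opposite strand, in capitals. It lies at chr5:53590096-53590395 on the plus strand of GRCm38.p6.
Rbpj: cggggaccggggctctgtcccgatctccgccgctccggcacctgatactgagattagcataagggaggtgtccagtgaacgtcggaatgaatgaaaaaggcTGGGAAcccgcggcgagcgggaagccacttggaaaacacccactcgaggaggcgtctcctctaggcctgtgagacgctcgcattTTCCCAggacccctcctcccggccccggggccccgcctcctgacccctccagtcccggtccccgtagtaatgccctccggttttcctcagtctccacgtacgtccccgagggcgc
The copies began at -149 and -65 from the gene start and did not overlap. The window of the second Rbpj promoter overlaps this one and holds the TTCCCA copy. Of the 8 Notch genes with a promoter, Rbpj was the 1 gene with this motif, where 25.6% of 32851 promoters held it.

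The target genes in the set showed no shared direction between the knockout arrays. Hes1, a repressor and classical Notch target, read 246 and 78.9 in AhR knockout 1 and 2, against 179 and 219 in wild type 1 and 2. AhR knockout 1 was the highest and AhR knockout 2 the lowest of the 4 arrays. The mean was 162 ± 118 in knockout and 199 ± 28.6 in wild type (SD, n = 2 each), and the log2 difference was -0.44 ± 0.48 (SE) with a 95% interval from -1.51 to 0.63 and a limma adjusted p of 0.62. Its direction rested on AhR knockout 2. Without that array the difference was 0.29, and without AhR knockout 1 it was -1.17, each resting on a lone knockout array. Hey1, a related repressor, was under the signal filter at 74.9 and 67.2 in knockout and 67.4 and 75.1 in wild type. Its knockout and wild-type means were 71.0 and 71.3.

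**Figure D4:**
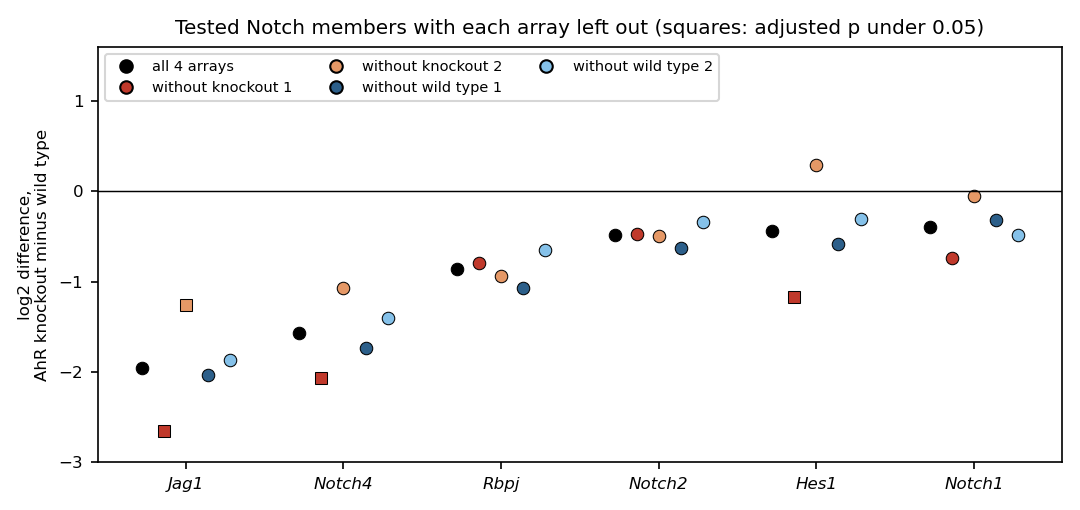
Log2 difference, AhR knockout minus wild type (y axis), of the 6 tested Notch genes with all 4 arrays in black and with each array left out in colour. Squares mark an adjusted p under 0.05 in limma. With an array left out, a group is left with a lone array that is assumed to vary like the others. Jag1 passed without either knockout array, Notch4 and Hes1 without AhR knockout 1, and Hes1 is above 0 without AhR knockout 2.

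Around these genes, 55 further genes of the pathway were listed, of which 48 were measured and 32 tested. Of the 32, 18 were higher and 14 lower in knockout cultures, with a median log2 difference of 0.17 against 0.01 for all tested genes. In limma 0 passed. At an unadjusted p under 0.05, 6 were higher and 4 lower, where 7.61% and 12.8% of all tested genes were higher and lower by that rule. Both knockout arrays lay above both wild-type arrays for 13 and below them for 10, where 28.6% and 26.5% of tested genes did so. Ncstn and Dtx1 are among the higher genes in both counts. They passed the signal filter only through the knockout arrays, so the counts of higher genes are not read as support. Without AhR knockout 1, 10 of the 32 passed, where 17.9% of all tested genes did. Without AhR knockout 2 there were 5 that passed, namely Adam10, Adam17, Psen2, Fbxw7 and Hdac2, where 13.5% of all tested genes did, so that this count is near the background.

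**Figure D5:**
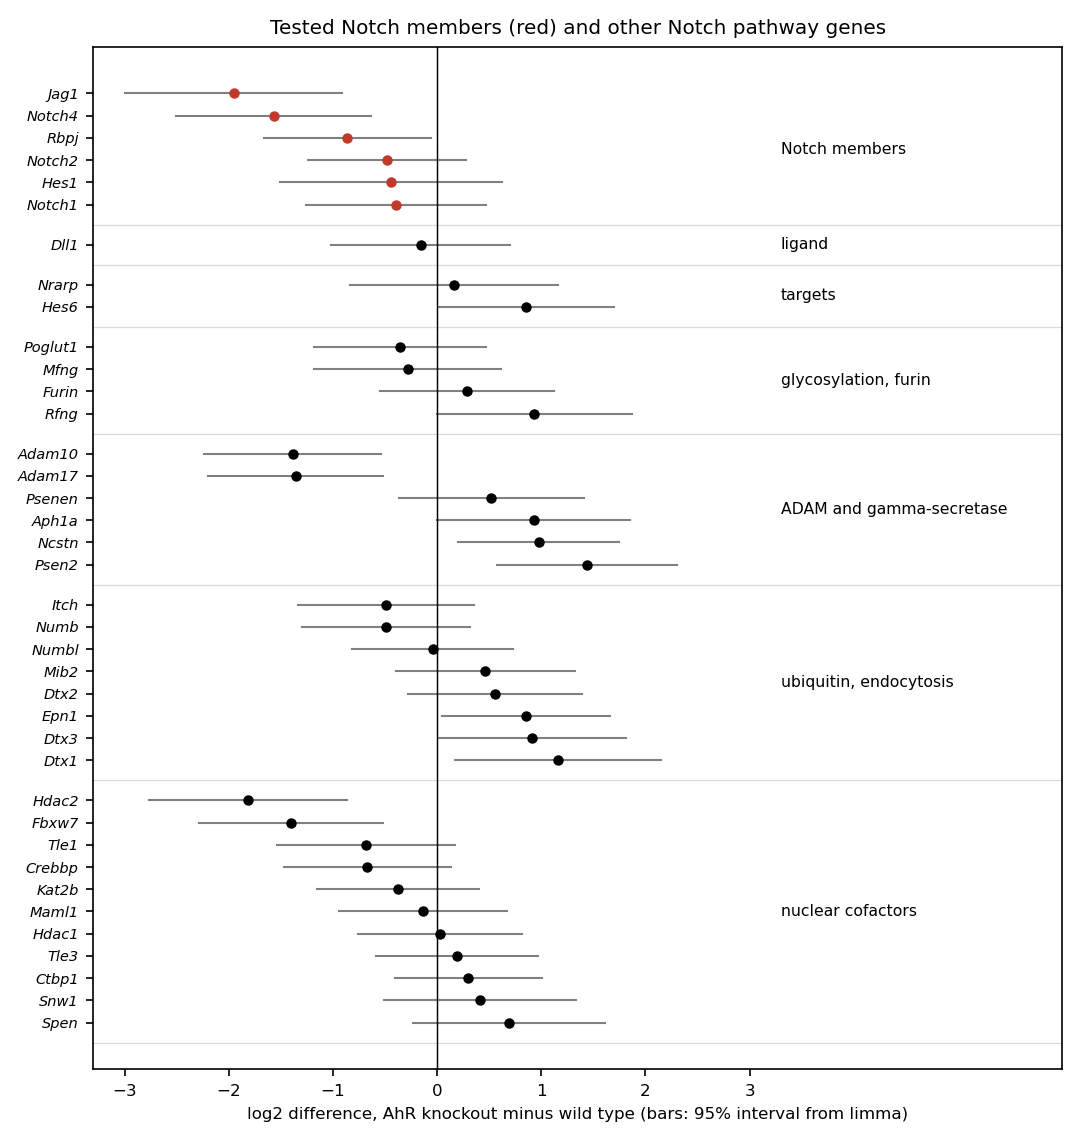
Log2 difference, AhR knockout minus wild type (x axis), of the 6 tested Notch genes in red and the 32 other tested pathway genes in black, grouped by role. Bars are 95% intervals from limma. The 2 ADAM proteases lie left of 0 and the 4 gamma-secretase genes right of it.

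The genes of receptor cleavage were separated by enzyme after their values were seen. Adam10 encodes the main protease of ligand-dependent Notch cleavage. It read 2594 and 5145 in AhR knockout 1 and 2, against 7795 and 11761 in wild type 1 and 2, without overlap. Its log2 difference was -1.39 ± 0.38 (SE), with a limma adjusted p of 0.10. The second Adam10 probe set differed by -2.77 in the same direction, and the dimmest overlapped between groups. Adam17, a related sheddase, read 234 and 263 in knockout and 548 and 798 in wild type, a difference of -1.36 ± 0.38 (SE) with a limma adjusted p of 0.10. The 2 dimmer Adam17 probe sets overlapped between groups, the brighter of them at 156 and 325 in knockout and 383 and 296 in wild type, and the mean of its probe sets gave -0.73.

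All 4 measured genes of gamma-secretase, the enzyme that makes the second cut, were higher in knockout cultures, as were 50.4% of all tested genes. None of the 4 passed. Psen2, a presenilin that forms its catalytic core, read 4501 and 4447 in AhR knockout 1 and 2, against 2315 and 1165 in wild type 1 and 2. The groups did not overlap, and the difference was 1.44 ± 0.39 (SE) with a limma adjusted p of 0.098. Ncstn, the substrate-docking subunit nicastrin, read 133 and 122 in knockout and 65.6 and 49.0 in wild type, a difference of 0.98 with a limma adjusted p of 0.16. Both wild-type values of Ncstn lie under the lowest mean signal tested, 76.1. It passed the signal filter only through the knockout arrays, so its p is not read as support. Aph1a and Psenen, the scaffold and activating subunits, were named after their values were seen, and they differed by 0.93 and 0.52. On the brightest probe sets only Psenen overlapped between groups. The second Aph1a probe set overlapped too, at 1681 and 1250 in knockout and 1280 and 695 in wild type. The dimmest Aph1a probe set was higher in knockout without overlap. Of the 10 melanocyte markers measured, 9 were higher in the same arrays, where 50.4% of all tested genes were. Both knockout arrays lay above both wild-type arrays for 7 of the 10, where 28.6% of all tested genes did so, and 2 overlapped between groups. Mitf, the remaining marker, was lower without overlap, by -0.41. Knockout arrays 1 and 2 gave melanocyte medians of 0.78 and 0.90, beside 0.90 and 1.08 for the gamma-secretase genes. The part of melanocytes in the gamma-secretase differences was not tested.

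Nuclear partners of the pathway went both ways, with 5 higher and 6 lower of 11 tested. Hdac2, a histone deacetylase of co-repressor complexes, had the smallest p of the 32 genes. It read 269 and 132 in AhR knockout 1 and 2, against 594 and 846 in wild type 1 and 2, a difference of -1.82 ± 0.43 (SE) with a limma adjusted p of 0.070. Fbxw7, the ubiquitin ligase subunit that marks the Notch intracellular domain for degradation, read 277 and 229 in knockout and 535 and 895 in wild type. Its difference was -1.40 ± 0.40 (SE), with a limma adjusted p of 0.11, and its dimmer probe set was lower too, by -1.04. Neither gene overlapped between groups. Hdac1 and Maml1, a related deacetylase and the co-activator Mastermind, were named after their values were seen and differed by 0.03 and -0.13.

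Of 8 tested genes of ubiquitination and endocytosis, 5 were higher and 3 lower. Dtx1, a Deltex ubiquitin ligase acting on Notch, read 154 and 220 in knockout and 119 and 43.5 in wild type, a difference of 1.16 with a limma adjusted p of 0.19. The size rested on the wild-type arrays, since the Dtx1 difference was 1.75 without wild type 1 and 0.57 without wild type 2. Averaged on the log2 scale of the signal filter, the wild-type arrays of Dtx1 lie under the lowest mean tested. Dtx1 passed the filter only through the knockout arrays, so its p is not read as support. Epn1, an epsin of clathrin-coated pits, read 382 and 462 in knockout and 244 and 208 in wild type, a difference of 0.85 with a limma adjusted p of 0.22. Both pairs of groups were separate. Of 4 tested genes of glycosylation and furin processing, 2 were higher and 2 lower, and Dll1 was the only further ligand bright enough to test, with a difference of -0.16.

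Of 8 further target genes, 6 were under the signal filter, and the 2 tested, Hes6 and Nrarp, differed by 0.86 and 0.16. Nrarp read 939 and 395 in AhR knockout 1 and 2, on either side of 539 and 551 in wild type. Its dimmer probe set was higher in both knockout arrays, and the dimmer Hes6 probe set overlapped between groups. Of the 6 under the filter, Hes5 and Hes7 were named after their values were seen. Hes5 read 32.9 and 31.1 in knockout and 4.47 and 3.89 in wild type, and Hes7 read 38.0 and 38.0 in knockout and 6.56 and 3.59 in wild type. These values lie far under the lowest mean signal tested, and a dimmer Hes5 probe set overlapped between groups.

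The genes whose pattern over the 4 arrays lay nearest to that of Jag1 were Apln, Smarca2, Emp1, Edn1 and Ranbp9. Likeness was the distance between log2 values centred on each gene's own mean, among 2846 tested genes with an SD of at least 0.5. The distance was 0.07 for Apln, which encodes the secreted peptide apelin, 0.15 for Smarca2, a chromatin-remodelling ATPase, and 0.16 for Emp1, a membrane protein. It was 0.18 for Edn1, endothelin 1, and 0.19 for Ranbp9, a scaffold protein. Apln read 794 and 275 in AhR knockout 1 and 2, against 1809 and 1954 in wild type 1 and 2. With 4 arrays many genes can share such a pattern, and no test was made.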

How the data were processed

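Culture RNA was amplified, biotinylated and put on Affymetrix arrays of 1 colour, as the labels' protocols state. The deposited intensity values are linear MAS5 signal, per the submitters' processing notes. With 2% trimmed at each end, their mean was between 500.2 and 500.3 on every array, so a shift shared by most genes cannot be seen. The number of arrays limits the precision. Of 22690 probe sets, 20380 had a single gene symbol, and RefSeq tables of GRCm38.p6 supplied current symbols and promoters.

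The probe set with the highest mean log2(signal + 16) stood for a gene. The top 60% of genes by that mean, 7436 in all, were tested with limma 3.58.1 (lmFit, eBayes with a trend) in R 4.3.3, two-sided, with Benjamini-Hochberg adjustment and a threshold of 0.05. The scripts were tested on simulated data. An exact permutation of 2 against 2 arrays cannot reach that threshold. No label pairs the animals, and no block was used.

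All 10 Notch genes are named, with the 8 other pathway genes of smallest p, Ahr and the 5 genes nearest to Jag1. Other names were chosen after their values were seen. The Notch genes and all lists were chosen with earlier results of these data known. Of 15 alternatives, 1, the linear mean for choosing probe sets and genes, was added after the data were seen.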

Additional observations from a re-analysis of the deposited data

How the results depend on the processing

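No Notch gene and no other pathway gene passed under the other scalings, pseudocounts, filters, probe-set rules or variance models tried. With the title number as a replicate block, Jag1, Notch4 and 10 other pathway genes passed in limma, as did 1371 of all tested genes. The block leaves each gene fewer degrees of freedom to measure its own spread, and no label pairs the animals. The difference between animals 1 and 2 in the knockout group correlated with that in the wild-type group at r = 0.36 across 7436 genes. These genes are not independent. For Jag1 and Notch4, animal 1 read above animal 2 in knockout and below it in wild type. The passes of these 2 genes with the block are therefore not read as support. With each array left out in turn, between 0 and 3 Notch genes, between 0 and 10 other pathway genes and between 12 (without wild type 2) and 1331 (without AhR knockout 1) of all tested genes passed, with 1005 without AhR knockout 2 and 141 without wild type 1, and the median of the tested Notch genes ran from -0.98 to -0.56. All tested genes past the threshold numbered 61, and 22 with quantile normalization, 97 with a pseudocount of 64, 1 without the signal filter and 4 with the top 40% of genes. The median of the tested Notch genes, -0.67, was -0.48 without the filter, where all 10 enter, and -0.44 with the mean of probe sets. Notch1 reversed to 0.22 with the mean of probe sets, and with arrays left out Hes1 ranged from -1.17 to 0.29, the positive value without AhR knockout 2. Jag1, Rbpj and Hes1 were not tested in the top 40%. The causes were not tested. With 2 arrays a group, intervals are wide, and the 4 dim Notch genes have values only.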
